A study of Catharanthus roseus with 15 samples.

Results

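MSL4 (CRO_000898) and C4H (CRO_000894) are 2 of the 33829 genes counted in leaves of *Catharanthus roseus*, the Madagascar periwinkle, and they were picked by name because earlier results of these libraries showed both higher 3 h after methyl jasmonate. The names are those of the best Arabidopsis protein match in the study's annotation, so each gene is called here by its match. The levels in the libraries taken 3 h after methyl jasmonate therefore chose the genes, and every difference that uses those libraries is given as a description with no test.

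Leaves of the cultivar Vitae Rose Red were sampled from greenhouse seedlings in 5 groups of 3 libraries each, 15 in all. The 0 h group was the untreated starting point, ETH 3 h and ETH 24 h followed a spray with 100 µM ethephon, which releases ethylene, and MJ 3 h and MJ 24 h followed a spray with 100 µM methyl jasmonate. All groups share the cultivar and the tissue, and no water-sprayed libraries from those times are among the samples, so the hormone, the spray and the time since 0 h cannot be told apart within a comparison with 0 h. The study calls the replicates biological. The p-values rest on the spread between libraries within groups, estimated together over the 5 groups, so groups outside a comparison also enter it. In whole leaf, fewer cells of a type and less RNA per cell cannot be told apart.

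Mechanosensitive channels of the MscS-like (MSL) family open when tension in a membrane rises and let ions flow, and in Arabidopsis the group that holds MSL4 sits in the plasma membrane. Cinnamate 4-hydroxylase is a cytochrome P450 enzyme that hydroxylates cinnamate, the step after phenylalanine ammonia-lyase at the head of the phenylpropanoid pathway, which leads to lignin, flavonoids and phenolic acids. Jasmonates are wound and defence hormones whose signal is known in plants to raise many genes of specialised metabolism, and ethylene is a gaseous hormone that acts with or against them depending on the tissue.

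Total counts lay between 23710688 and 31168281 per library, with a median of 26443250. Levels are in CPM, a gene's reads relative to the total of its library, with totals scaled by the trimmed mean of M values (TMM). The leaf markers PSAF, CH1, rbcL (ATCG00490.1) and NPQ7 were all detected in every library, and their summed level ran from 1263 to 6082 CPM. A list of 7 genes of young or dividing tissue held 2 entries matched to ANT, with AIL6, SPCH, CDC45, RNR2A and STM. It summed to 66.2 CPM in ETH 3 h replicate 1 and to 91.8 CPM in MJ 3 h replicate 1. The other 13 libraries held 8.58 to 20.1 CPM. ANT, AIL6, SPCH and CDC45 were highest of their group in these 2 libraries. RNR2A was not, at 2.71 and 4.48 CPM, and STM had no read in either. Those 2 libraries were also each other's closest library over all tested genes, with a Pearson r of 0.952 between their log2 levels. Their part in the results was not tested, and the differences of MSL4 and C4H that use them are also given without them.

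MSL4 was low in untreated leaves and high in all libraries taken 3 h after methyl jasmonate. It stood at 6.16, 5.98 and 5.35 CPM (155, 165 and 119 reads) in the 3 libraries of 0 h. It stood at 23.1, 30.8 and 15.7 CPM (630, 867 and 399 reads) in those of MJ 3 h. Each MJ 3 h library was above each 0 h library, as for 19.6% of tested genes, the lowest of them at 2.70 times and the highest at 5.28 times the 0 h mean. At MJ 24 h the 3 libraries held 5.62, 4.81 and 5.88 CPM (149, 131 and 161 reads), again within or below the range of 0 h. The high level was thus seen at 3 h and not in the libraries of 24 h.

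After ethephon MSL4 stayed below every MJ 3 h library. The ETH 3 h libraries held 9.30, 5.10 and 7.35 CPM (330, 130 and 184 reads). The ETH 24 h libraries held 7.19, 6.66 and 10.3 CPM (191, 197 and 255 reads). ETH 3 h replicate 1 and ETH 24 h replicate 3 were the highest of these. ETH 3 h overlapped 0 h, while ETH 24 h lay above it without overlap, as for 19% of tested genes.

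In group means, MSL4 was at 23.2 ± 7.54 CPM at MJ 3 h, 8.05 ± 1.97 at ETH 24 h, 7.25 ± 2.10 at ETH 3 h, 5.83 ± 0.426 at 0 h and 5.44 ± 0.555 at MJ 24 h (mean ± SD, n = 3 each). MJ 3 h was the one group whose libraries all lay apart from the rest: its lowest, 15.7 CPM, was above the highest of the 12 others, 10.3 CPM. Of all tested genes, 5.84% showed this same full separation of MJ 3 h upward. Among the 4 other groups, the neighbours ETH 24 h and ETH 3 h, ETH 3 h and 0 h, and 0 h and MJ 24 h overlapped and did not differ beyond their spread.

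C4H was well expressed in every library and also highest at MJ 3 h. Its 0 h libraries held 229.9, 248 and 293 CPM (5786, 6833 and 6511 reads). Its MJ 3 h libraries held 420, 630 and 871 CPM (11452, 17745 and 22094 reads). All 3 were above all of 0 h, as for 19.6% of tested genes, at 1.64, 2.46 and 3.39 times the 0 h mean. At MJ 24 h C4H was at 340, 294 and 165 CPM (9012, 8000 and 4529 reads), on both sides of the 0 h libraries, and replicate 3 was the lowest of the 15 libraries.

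Ethephon gave C4H an uneven picture at 3 h and an even one at 24 h. The ETH 3 h libraries held 248, 515 and 329 CPM (8787, 13132 and 8232 reads). The ETH 24 h libraries held 245, 221 and 213 CPM (6521, 6536 and 5277 reads). ETH 3 h replicate 2 was 2.01 times the 0 h mean and lay above the lowest MJ 3 h library, the only one of the 12 others to do so, while ETH 3 h replicate 1 lay within the 0 h range.

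The order of the C4H means was MJ 3 h at 641 ± 225 CPM, ETH 3 h at 364 ± 137, MJ 24 h at 266 ± 90.6, 0 h at 257 ± 32.3 and ETH 24 h at 227 ± 16.7 (mean ± SD, n = 3 each). Every neighbouring pair in that order overlapped. The highest library over the lowest was 5.27-fold for C4H and 6.40-fold for MSL4 over all 15, and 3.12-fold and 2.14-fold over the 12 libraries outside MJ 3 h.

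**Figure D1:**
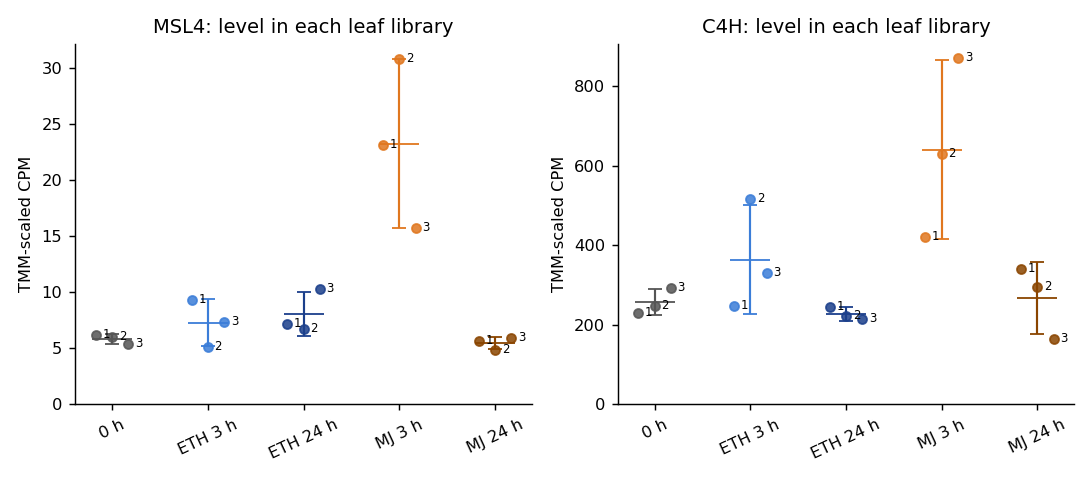
Level of MSL4 (left) and C4H (right) in TMM-scaled CPM on linear axes from 0, for the 5 groups; points are libraries numbered by replicate, and the bars show mean ± SD (n = 3). The MJ 3 h libraries of MSL4 sit between 15.7 and 30.8 CPM, above all 12 others, whereas ETH 3 h replicate 2 of C4H, at 515 CPM, reaches into the MJ 3 h range.

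The differences that chose the genes were, for MSL4, a log2 difference of 1.99 (SE 0.273) between MJ 3 h and 0 h, 3.98-fold, and, for C4H, 1.32 (SE 0.327), 2.49-fold. In that comparison 9.55% of the 18008 tested genes were called higher, where a call is an adjusted p under 0.05 in edgeR's quasi-likelihood test with a fold above 1.5, and nothing is read from the members' place among them. Counted down from the highest upward log2 difference, MSL4 ranked 653 and C4H 1253 of all tested genes. Between MJ 24 h and MJ 3 h, the log2 differences were -2.09 (SE 0.274) for MSL4 and -1.27 (SE 0.327) for C4H, both without overlap, as for 16.3% of tested genes in that direction.

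Both genes were higher at MJ 3 h than at ETH 3 h, MSL4 by a log2 difference of 1.68 (SE 0.270) with no overlap and C4H by 0.82 (SE 0.324) with 8 of 9 pairs of libraries in that direction. Of all tested genes 10.2% were higher without overlap there. Subtracting the MJ change between 3 h and 24 h from the ETH change gave log2 differences of 2.24 (SE 0.378) for MSL4 and 0.58 (SE 0.456) for C4H, again as a description. With replicate 1 of both 3 h groups left out, MSL4 was higher at MJ 3 h than at 0 h by 1.97 and C4H by 1.53, and higher than at ETH 3 h by 1.91 and 0.84. Between MJ 24 h and MJ 3 h the values were then -2.08 and -1.48, and the ETH change minus the MJ change was 2.47 and 0.60. Leaving out MJ 3 h replicate 3 alone brought C4H to 0.54 between MJ 3 h and ETH 3 h.

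The 5 comparisons that leave out MJ 3 h were tested, and 0 of the 2 genes were called in any of them in edgeR, also 0 at an unadjusted p under 0.05 and 0 in DESeq2, while limma voom with quality weights called C4H in 2. Of the 18008 tested genes, 2176 to 5765 had an unadjusted p under 0.05 in these comparisons in edgeR. Limma voom called many genes in those 2, 3975 at ETH 3 h against 0 h and 2218 at ETH 24 h against ETH 3 h. The 3 comparisons against 0 h use the same 0 h libraries as the comparison that chose the genes, so a high or low 0 h library moves both. Unless limma is named, adjusted p-values are from edgeR's quasi-likelihood test with Benjamini-Hochberg adjustment over all 18008 tested genes.

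At MJ 24 h against 0 h, MSL4 differed by a log2 value of -0.10 (95% interval -0.68 to 0.48, adjusted p = 0.890 in edgeR) and C4H by 0.05 (-0.65 to 0.75, adjusted p = 0.953 in edgeR). Few genes of any kind passed there, 0.0278% of those tested. The interval of MSL4 ended at 1.39-fold upward, below the 1.5-fold used for a call, and that of C4H reached past it. Downward the interval of MSL4 ended at 0.624-fold, past the 0.667-fold that a call would need, and so did that of C4H, at 0.639-fold.

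At ETH 3 h against 0 h, 11.9% of tested genes were called and both of these were not. MSL4 differed by 0.32 (-0.26 to 0.89, adjusted p = 0.444 in edgeR) and C4H by 0.50 (-0.20 to 1.21, adjusted p = 0.307 in edgeR), with C4H higher in 8 of 9 pairs of libraries. The C4H call depended on the test: limma voom with quality weights gave 0.74 with an adjusted p of 0.0136. With replicate 1 of both 3 h groups left out the differences were 0.07 for MSL4 and 0.69 for C4H, and without ETH 3 h replicate 2 they were 0.52 (adjusted p = 0.239 in edgeR) and 0.17 (adjusted p = 0.779 in edgeR), so MSL4 leaned on replicate 1 and C4H on replicate 2.

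At ETH 24 h against 0 h, MSL4 was at 1.38 times the 0 h mean with all 9 pairs of libraries in that direction, a separation that 19% of tested genes showed upward. The log2 difference was 0.46 (-0.11 to 1.04, adjusted p = 0.374 in edgeR), and 0.24 without ETH 24 h replicate 3. C4H differed by -0.18 with an adjusted p of 0.807 in edgeR and overlapped 0 h. Called genes made up 2.18% of those tested.

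Between the hormones at 24 h, MSL4 was at 1.48 times its MJ 24 h mean in ETH 24 h, without overlap, as 15% of tested genes were in that direction. The log2 difference was 0.57 (-0.01 to 1.14, adjusted p = 0.353 in edgeR), against 1.04% of genes called, and 0.34 without ETH 24 h replicate 3. That of C4H was -0.23 with an adjusted p of 0.812 in edgeR.

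From ETH 3 h to ETH 24 h, C4H went from 248 to 515 CPM down to 213 to 245 CPM, without overlap, as 16.1% of tested genes did downward. The log2 difference was -0.68 (-1.39 to 0.02, adjusted p = 0.230 in edgeR), and limma voom with quality weights called it at -0.81 (adjusted p = 0.0176). Without ETH 3 h replicate 2 it was -0.35 (adjusted p = 0.621 in edgeR). MSL4 differed by 0.15 (-0.43 to 0.72, adjusted p = 0.781 in edgeR). With replicate 1 of both 3 h groups left out the values were -0.88 for C4H and 0.39 for MSL4. Called genes made up 3.62% of those tested.

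**Figure D2:**
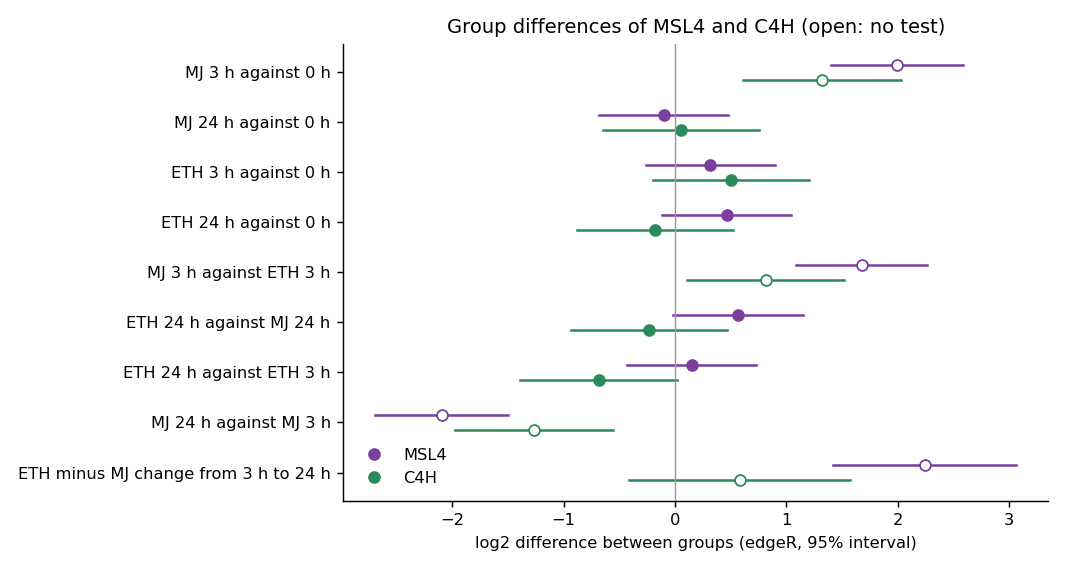
Log2 difference of MSL4 (purple) and C4H (green) in each of 9 comparisons, with 95% intervals from edgeR; filled points were tested and open points use the MJ 3 h libraries and were not. The open points at MJ 3 h against 0 h stand at 1.99 and 1.32, while the interval of every filled point includes 0.

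The MJ 3 h libraries ordered the genes differently. MSL4 was highest in replicate 2 and lowest in replicate 3, whereas C4H was highest in replicate 3 and lowest in replicate 1. Over the 15 libraries the log2 levels of the 2 genes had a Pearson r of 0.579 and a Spearman rho of 0.196, and over the 12 outside MJ 3 h an r of -0.400 and a rho of -0.469. These are descriptions over libraries that share groups, and the 3 MJ 3 h libraries carry the positive value. C4H ranked 2130 among the 18007 other genes by likeness to MSL4, and MSL4 ranked 2513 by likeness to C4H.

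Within groups the SD of the log2 level, pooled over the 5 groups, was 0.31 for MSL4 and 0.42 for C4H, against a median of 0.24 over all tested genes. Both genes thus varied more between libraries of a group than the middle gene did, C4H although it had 4529 or more reads in each library. MSL4 had 119 to 867 reads a library.

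The genes most like MSL4 over the 15 libraries, by Pearson r of log2(CPM + 1), were the unnamed CRO_021582 (0.937) and CRO_011722 (0.926). Both were scarce outside MJ 3 h, with means of 0.237 and 0.125 CPM at 0 h against 1.61 and 2.12 CPM at MJ 3 h, and their r over the 12 other libraries was 0.450 and 0.565. Among the 536 tested genes with a symbol they were PSL4 (0.884), a glucosidase II subunit of protein folding in the endoplasmic reticulum, AT3G51520 (0.865), of the diacylglycerol acyltransferase family, the annexin ANNAT7 (0.834), a calcium-binding membrane protein, AT4G34555 (0.819), a ribosomal protein of the S25 family, and AT5G65380 (0.812), of the MATE efflux transporters. The mean of AT3G51520 was 28.5 CPM in untreated leaves, against 305 CPM for MJ 3 h. ANNAT7 was the one of these whose r stayed near its value outside MJ 3 h, at 0.846 over 12 libraries, while that of AT3G51520 was -0.06. For PSL4, AT4G34555 and AT5G65380 the r over the same libraries was 0.417, 0.307 and 0.392. Among all 18007 other genes PSL4 ranked 37 and AT5G65380 ranked 252 by likeness to MSL4.

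The genes most like C4H were the unnamed CRO_014525 (0.972) and CRO_028324 (0.968), whose r over the 12 libraries outside MJ 3 h was 0.912 and 0.921. Those with a symbol were AT5G15950 (0.933), an S-adenosylmethionine decarboxylase of polyamine synthesis, the RNA helicase EIF4A-III (0.904), AT3G22270 (0.899), AT2G29500 (0.895), a small heat shock protein, and RA-5 (0.857). The mean of AT5G15950 was 176 CPM in untreated leaves, against 388 CPM for MJ 3 h. The r of AT5G15950 with C4H outside MJ 3 h was 0.837. Among all 18007 other genes AT5G15950 ranked 12 and RA-5 ranked 165 by likeness to C4H. An r above 0.9 was reached by 46 genes for C4H and by 18 for MSL4.

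MSL4 lies on scaffold 3057451 of the assembly used in the study's annotation, from 4539 to 7640 on the plus strand, and C4H on scaffold 2986973, from 49384 to 52827 on the minus strand; the study names 2 genome sources, and which of them these positions belong to is not stated. RPA1A, a subunit of the single-stranded DNA binding replication protein A, lies from 7905 to 10680 on the minus strand, 264 bases beyond the end of MSL4 and pointing toward it. RPA1A was at 8.31, 8.37 and 9.66 CPM in untreated leaves and at 6.94, 9.95 and 9.34 CPM in the MJ 3 h libraries. Its log2 difference was -0.01 (95% interval -0.34 to 0.32, adjusted p = 0.981 in edgeR), so the closest neighbour of MSL4 had no called change at MJ 3 h. The sources used here do not say whether the counting used the strand.

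Of the 4 other annotated genes on the scaffold of MSL4, 1 rose and 0 fell from 0 h to MJ 3 h, while 20.8% of tested genes were called in either direction. It was AT2G31610, a ribosomal protein of the S3 family, with 44.4, 55.2 and 38.6 CPM in untreated leaves and 86.6, 124 and 95.9 CPM in the MJ 3 h libraries (log2 difference 1.15, SE 0.174, adjusted p = 7.88e-04 in edgeR). AT2G31610 was also called higher at ETH 3 h (65.4, 70.3 and 78.2 CPM; log2 difference 0.63, adjusted p = 0.0287 in edgeR). ELF4-L4, related to a clock gene, differed at MJ 3 h by -0.35 (adjusted p = 0.225 in edgeR) and AT2G31670 by -0.17 (adjusted p = 0.265 in edgeR). The 1 other annotated gene on the scaffold of C4H, CRO_000895, had no read in any of the 15 libraries, and 3 reads would be 0.0963 to 0.127 CPM.

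Of 10 other listed genes of phenylpropanoid and phenolic metabolism, 6 had enough reads to test. In edgeR 0 of the 6 were called in the 4 comparisons with 0 h, where the shares over all tested genes were 20.8% (MJ 3 h), 11.9% (ETH 3 h), 2.18% (ETH 24 h) and 0.0278% (MJ 24 h). At an unadjusted p under 0.05 and in limma voom the count was also 0, except for 1 gene each at MJ 24 h (UGT71B1 in edgeR), and DESeq2 called 0. With so few genes a count of 0 is no result about the list. Names were readable in only 1022 annotation lines and the network tables, for 33829 genes. The list holds no entry named for phenylalanine ammonia-lyase, so it does not show how the pathway around C4H moved. Their median log2 difference at MJ 3 h was 0.09, beside 0.05 over all tested genes. CUE1, the plastid phosphoenolpyruvate transporter that feeds the shikimate pathway, differed by -0.54 (adjusted p = 0.376 in edgeR), and UGT71B1, a glucosyltransferase, by 0.38 (adjusted p = 0.563 in edgeR). Between MJ 24 h and MJ 3 h CUE1 rose by 1.33 (adjusted p = 0.0455 in edgeR), and UGT71B1 fell by 1.38 (adjusted p = 0.0471 in edgeR), in a comparison where 16.4% of tested genes were called. With replicate 1 of both 3 h groups left out, CUE1 kept that call and UGT71B1 did not.

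Of 6 listed regulators of the pathway, 4 were tested and 1, MYB5, was called higher both at MJ 3 h (log2 difference 0.59, adjusted p = 0.0419 in edgeR) and at ETH 3 h (0.73, adjusted p = 0.0274 in edgeR). The shares over all tested genes were 20.8% and 11.9%. DESeq2 called 0 of the 4 at MJ 3 h and 1 at ETH 3 h, and limma voom called 0 at either. With replicate 1 of both 3 h groups left out MYB5 was called in neither comparison, and GL3 was called lower at ETH 3 h (log2 difference -1.62, adjusted p = 0.00321 in edgeR). MYB5 is a MYB factor of flavonoid and seed coat development in Arabidopsis, and its level was 3.37 to 5.25 CPM at 0 h, 6.30 to 6.68 at MJ 3 h and 6.03 to 8.77 at ETH 3 h. MYB4, a repressor of C4H in Arabidopsis, was at 4.14 to 5.64 CPM at 0 h and 4.85 to 6.66 at MJ 3 h (log2 difference 0.15, adjusted p = 0.605 in edgeR). GL3, a bHLH partner of such MYB factors, was at 89.8 CPM in MJ 3 h replicate 1 and at 5.47 and 6.30 CPM in the others. That library had the highest summed level of the young-tissue list.

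Of the 8 other listed cytochrome P450 enzymes, 7 were tested and 0 were called at MJ 3 h against 0 h in edgeR, also 0 at an unadjusted p under 0.05, in DESeq2 and in limma voom, beside 20.8% of all tested genes in edgeR. CYP71B10 was called higher at ETH 24 h against 0 h, where 2.18% of tested genes were called, at 2.86, 2.87 and 1.54 CPM against 0.32, 0.11 and 0.31 (log2 difference 3.28, adjusted p = 0.0305 in edgeR). G8O, the geraniol oxidase of iridoid synthesis, had 443, 280 and 177 CPM at MJ 3 h against 152 to 172 at 0 h (0.89, adjusted p = 0.220 in edgeR), and 0.48 with replicate 1 of both 3 h groups left out.

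Of 16 other listed ion channels and transporters 13 were tested. At MJ 3 h against 0 h 1 was called higher and 3 lower, 4 of 13 beside 20.8% of all tested genes, with a median log2 difference of -0.22 beside 0.05 over all tested genes. With replicate 1 of both 3 h groups left out 5 were called, with 1 NHX1 entry in addition. That entry, CRO_000482, was then higher by 1.11 (adjusted p = 0.0132 in edgeR). The other NHX1 entry, CRO_000307, differed by 0.007 (adjusted p = 0.979 in edgeR). With all libraries ZAT, a zinc transporter, rose by 0.79 (adjusted p = 0.0131 in edgeR). TIP4;1, a water channel of the vacuole, fell by 1.91 (adjusted p = 0.00916 in edgeR), NRT1:2, a nitrate transporter, by 1.72 (adjusted p = 0.0135 in edgeR) and OPT3, an oligopeptide family transporter of iron and copper, by 1.25 (adjusted p = 0.0121 in edgeR).

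At ETH 3 h against 0 h 1 of the 13 was called higher and 2 lower, beside 11.9% of all tested genes called in either direction. OPT3 rose by 1.26 (adjusted p = 0.0200 in edgeR), and TIP4;1 fell by 1.85 (adjusted p = 0.0187 in edgeR). AT3G21620, of the family of osmotically gated calcium channels, fell by 0.73 at ETH 3 h (adjusted p = 0.00717 in edgeR). It was higher again at ETH 24 h than at ETH 3 h by 0.91 (adjusted p = 0.0122 in edgeR), where 3.62% of tested genes were called. AT3G21620 is the other gene of the list whose family is opened by mechanical or osmotic stress, and its MJ 3 h libraries held 235 to 254 CPM against 237 to 276 at 0 h.

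LOX2 and FAD7, enzymes that make jasmonate precursors in the plastid, were higher at MJ 3 h than at 0 h by log2 differences of 3.21 and 3.27. These are larger values than those of MSL4 and C4H. LOX2 and FAD7 were listed with their response known, so they are shown for scale and without a p. Their 0 h libraries spread widely, at 591, 266 and 70.0 CPM for LOX2 and 185, 296 and 45.2 CPM for FAD7. LOX2 was at 1432, 3442 and 3684 CPM in the MJ 3 h libraries and FAD7 at 780, 1934 and 2343 CPM, so replicate 1 was lowest for both, as it was for C4H and not for MSL4. The leaf markers PSAF and NPQ7 were called lower at MJ 3 h by 1.13 and 0.69 on the log2 scale (adjusted p = 0.0365 and 0.0135 in edgeR), and CH1 and rbcL were not called. Over all tested genes 20.8% were called there in either direction. The summed leaf markers ran from 1263 to 2401 CPM at MJ 3 h and from 2859 to 6082 at 0 h. Most of that sum was PSAF, at 1144 to 2230 CPM and 2726 to 5774 CPM. At ETH 3 h the sum was also below 0 h, at 1933 to 2729 CPM. There 1 of the 4 markers was called lower, beside 11.9% of tested genes called in either direction. The part of these shifts in the results for MSL4 and C4H was not tested.

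**Figure D3:**
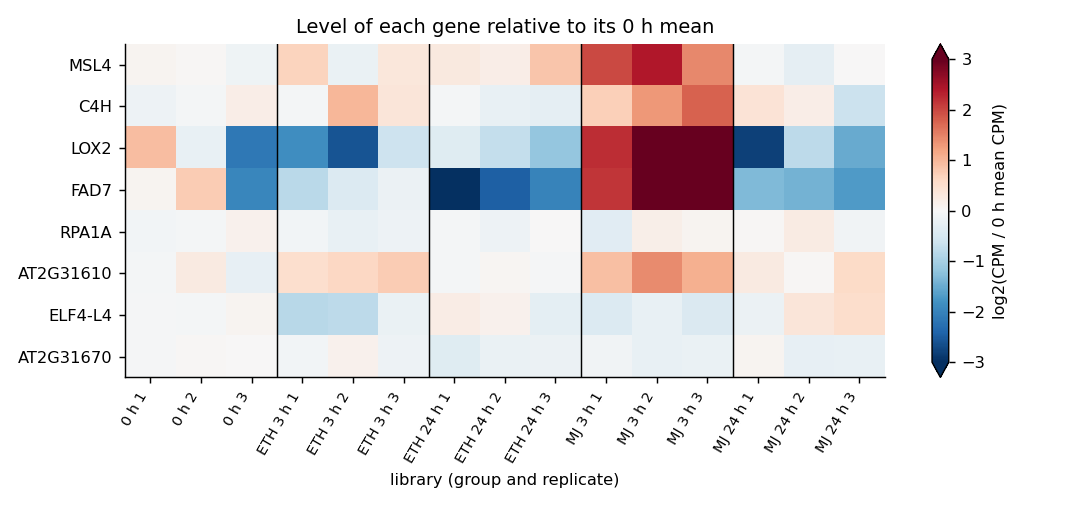
Level of MSL4, C4H, LOX2, FAD7 and the 4 scaffold neighbours of MSL4 in each library as log2 of CPM over the gene's 0 h mean, with colours from blue (lower) to red (higher) and the scale ending at 3 in either direction. In the MJ 3 h columns MSL4, C4H, LOX2, FAD7 and AT2G31610 are red, and RPA1A, next to MSL4, is near white.

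**Figure D4:**
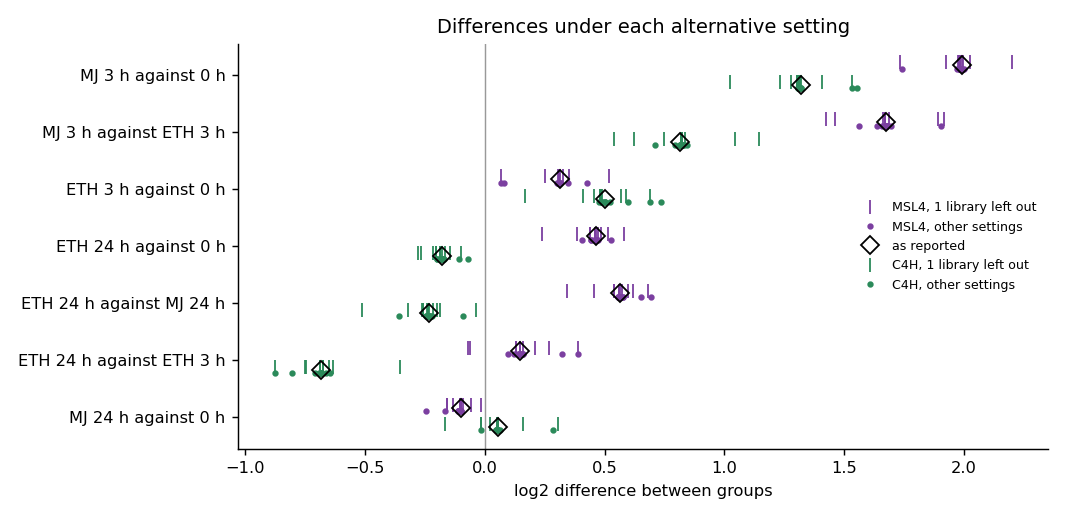
Log2 differences of MSL4 (purple) and C4H (green) in 7 comparisons as reported (diamonds), with 1 library left out (ticks) and under the other settings (dots). At MJ 3 h against 0 h the lowest value was 1.73 for MSL4 and 1.02 for C4H, while C4H at MJ 24 h against 0 h fell on both sides of 0.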

How the data were processed

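The deposited table holds raw read counts per gene for 15 leaf libraries; the authors prepared stranded mRNA libraries, sequenced both ends, used HISAT2 for alignment (release 2.0.4 per the submitters' notes on processing) and HTSeq for counting, whose version and strand setting are not given in the sources used here. The labels and the study's methods differ on the seedlings' age, which is therefore not given. Counts were fitted with edgeR 4.0.16 in R 4.3.3 (TMM scaling, filterByExpr by group, quasi-likelihood test, 1 term per group, no block). Of 33829 genes 18008 were tested, and 12077 had no count. Calls required an adjusted p under 0.05 (Benjamini-Hochberg) and a fold above 1.5. Intervals are 95% intervals of the fit. Differences in the text without a test are from the same fit.

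Alternatives were DESeq2 1.42.0, limma 3.58.1 (voom with quality weights), other scalings, other filters on low counts, other fold thresholds, only the groups compared, a replicate block and each library left out. The genes and lists were chosen with earlier results of these data known. Named genes are the 2 members, list genes called in a tested comparison with up to 3 others a list, the 5 genes with a symbol and the 2 of any ID most like each member, and the scaffold neighbours. Names and positions come from the 1022 readable lines of the study's annotation and its network tables. No 2 libraries held identical counts. The script was tested on simulated counts. No sequences are printed.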

Additional observations from a re-analysis of the deposited data

How the results depend on the processing

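Each of the 18 differences of MSL4 and C4H was recomputed under 27 alternatives, and 478 of the values kept their direction and, where tested, their call. That count is partly fixed in advance. The other fold thresholds use the same fit, so they could not change a direction. Many of the libraries left out belonged to groups outside the comparison. Limma voom with quality weights called C4H at ETH 3 h against 0 h (0.74) and at ETH 24 h against ETH 3 h (-0.81), and the cause was not tested. C4H at MJ 24 h against 0 h turned to -0.015 with library totals only, and with 1 library left out it ran from -0.17 to 0.31. MSL4 at ETH 24 h against ETH 3 h ran from -0.072 to 0.39 with 1 library left out. With a replicate block C4H at ETH 3 h against 0 h was 0.48 and MSL4 at MJ 3 h against 0 h 2.00, and the block changed no call of either gene. Whether the replicate numbers pair the libraries is not stated and was not tested. Same-numbered libraries of different groups deviated together with r from -0.66 to 0.77, over 0.1 in 15 of 30 pairs. Their median r was 0.115, beside -0.074 for the 60 pairs of different number, and 7 of 15 libraries correlated best with their own number.

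Counts of called genes, which set the background shares, depended on the test. At MJ 24 h against 0 h there were 5, and from 0 (replicate block) to 912 (limma voom) elsewhere. At ETH 24 h against 0 h there were 393, and 259 to 2765 under other settings or 83 to 520 with 1 library left out. At ETH 3 h against 0 h there were 2144, and 1110 to 3975 or 1008 to 2431. At ETH 24 h against MJ 24 h there were 187, and 118 to 1654 or 20 to 275. At ETH 24 h against ETH 3 h there were 652, and 258 to 2218 or 20 to 878. At MJ 3 h against 0 h there were 3750, and 2025 to 5048.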
